A study of Homo sapiens with 9 samples.

Results

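PLAU, PLAT, PLAUR, SERPINE2, SERPIND1 and SERPINB2 encode proteases of plasminogen activation, a cell-surface receptor and serpin inhibitors. These 6 genes, of 58395 gene identifiers counted, were chosen from changes measured in these same libraries, so their values are given as a description and no p-value is attached to them. The cells were of the MDA-MB-231 line, taken from a human breast cancer that lacks hormone receptors and HER2 amplification, and were grown in DMEM with serum and collected 96 h after reverse transfection of siRNA. The 3 groups were SKP2-1 and SKP2-2, which each received 1 individual siRNA, and NC, which received a nontargeting siRNA, with 3 libraries of total RNA in each group. All groups were transfected, and no untransfected cells and no other cell line were analysed here. The labels name SKP2 as the target of both siRNAs, whereas the design text names ZIP7, the zinc transporter encoded by SLC39A7. Nothing in the labels says that the libraries of a group came from separate cultures, and the spread behind each p-value may therefore be technical.

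Plasminogen is a circulating zymogen that is cut to the active protease plasmin, which dissolves fibrin and degrades or activates components of the extracellular matrix. Urokinase, encoded by PLAU, and tissue plasminogen activator, encoded by PLAT, make that cut. Urokinase works mainly at the cell surface, where it is held by its receptor, encoded by PLAUR, and tissue plasminogen activator works mainly on fibrin. Serpins inhibit such proteases by forming a covalent complex with them. Urokinase and its receptor are long known from invasive breast cancer and are abundant in MDA-MB-231 cells.

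Library totals were 35.5 to 49.9 M gene counts. SKP2, the F-box subunit of a ubiquitin ligase, was at 3.51, 3.31 and 3.91 CPM (read counts relative to library size, scaled by TMM) with SKP2-1, at 6.09, 5.69 and 6.11 CPM with SKP2-2, and at 57.5, 63.8 and 64.9 CPM in NC. It was 17.3-fold lower with SKP2-1 and 10.4-fold lower with SKP2-2 than in NC. SLC39A7 averaged 343 CPM with SKP2-1, 364 CPM with SKP2-2 and 342 CPM in NC, and did not pass edgeR's quasi-likelihood test with Benjamini-Hochberg adjustment against NC (adjusted p = 0.936 for SKP2-1 and 0.0868 for SKP2-2). The markers VIM, CD44, AXL, CAV1, MSN and ZEB1 of basal, mesenchymal breast cancer cells summed to 6821 to 6936 CPM with SKP2-1, 7614 to 7841 CPM with SKP2-2 and 6646 to 6755 CPM in NC. Within this sum, AXL averaged 630 CPM with SKP2-1, 1311 CPM with SKP2-2 and 1398 CPM in NC, and fell with SKP2-1 (edgeR adjusted p = 3.83e-10). CD44 and MSN rose with SKP2-1 (1.53- and 1.44-fold) and with SKP2-2 (1.27- and 1.46-fold). The luminal markers ESR1, PGR, GATA3, FOXA1, CDH1 and EPCAM summed to 30.4 to 31.7, 22.7 to 26.3 and 31.6 to 32.9 CPM in SKP2-1, SKP2-2 and NC. These sums hide changes in both directions. CDH1 fell with SKP2-1 (1.52-fold) and with SKP2-2 (3.19-fold), and FOXA1 fell with SKP2-2 (1.96-fold). EPCAM rose with SKP2-1 (1.28-fold). GATA3 passed with neither siRNA, and ESR1 and PGR were not tested.

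The region upstream of the start site is shown for 4 of the genes, because the transcripts of 3 of them were higher with SKP2-1 and that of PLAU was lower. RefSeq windows of 250 bases before a start (GRCh38.p14) were used for 5 of the 6 genes, and the sequence of PLAT is not reported here. They were searched on both strands for TGANTCA (AP-1), TGACGTCA (CRE), GGGCGG (GC box), CACGTG (E-box), CCGGAAGT (ETS) and TATAAA. None of these motifs lies inside another. Capitals mark the motifs found, and each stretch is written 5′ to 3′ on the strand of its gene.
PLAUR: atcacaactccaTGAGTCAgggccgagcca
SERPINB2: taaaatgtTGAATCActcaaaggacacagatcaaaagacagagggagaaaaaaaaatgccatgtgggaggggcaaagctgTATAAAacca
PLAU: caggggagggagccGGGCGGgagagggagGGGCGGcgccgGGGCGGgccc
SERPINE2: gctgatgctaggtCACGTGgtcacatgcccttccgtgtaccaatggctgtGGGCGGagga
The PLAUR stretch is chr19:43670338-43670367 on the minus strand and lies within an exon of other PLAUR transcripts in GENCODE 29. Its AP-1 motif starts 186 bases before the RefSeq start. The SERPINB2 stretch is chr18:63887595-63887684 on the plus strand, with an AP-1 motif starting 102 bases and a TATAAA starting 30 bases before the start. The PLAU stretch is chr10:73911052-73911101 on the plus strand, before 1 of the 2 listed starts, and holds 3 GC boxes. The SERPINE2 stretch is chr2:224031519-224031578 on the minus strand, likewise before 1 of 2 starts, and holds 1 E-box and 1 GC box.

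The sequence differed between the genes whose transcripts moved the same way. PLAUR and SERPINB2 had an AP-1 motif, SERPINE2 had none in either of its 2 windows, and the SERPIND1 window held none of the 6 motifs. Of all 35116 windows of this length, 6.6% held the AP-1 motif, 6.3% the E-box, 42.6% the GC box and 10.7% a TATAAA on either strand. CRE stood in 1.6% and the ETS motif in 3.4% of all windows, and neither was found in the windows of these genes. A motif match is a description of the letters and shows no binding.

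All of the genes except PLAU had more transcript with SKP2-1 than in NC, and PLAU had less. With SKP2-2 the PLAT libraries lay below those of NC, SERPINB2 had 1 count in all against 10 in NC, and the ranges of PLAU, PLAUR, SERPINE2 and SERPIND1 overlapped with NC. All 6 passed the filter on low counts, SERPINB2 only through the SKP2-1 libraries. Of the 6 genes, 5 were higher and 1 lower with SKP2-1 than in NC at an adjusted p below 0.05, a level that 25.0% of the 16575 genes tested reached as higher and 20.5% as lower. With SKP2-2 against NC, 0 were higher and 2 lower, where 25.2% and 24.1% of all genes were. With SKP2-2 against SKP2-1, 1 was higher and 5 lower, where 25.2% and 25.3% of all genes were. These counts follow from how the genes were chosen and nothing is read from them. The count of 2 with SKP2-2 was 1 without SKP2-2 replicate 2 or replicate 3, and 3 without SKP2-2 replicate 1 or NC replicate 1. Both siRNAs were compared with the same 3 NC libraries. In bulk RNA, fewer cells with a transcript and less transcript per cell cannot be told apart.

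**Figure D1:**
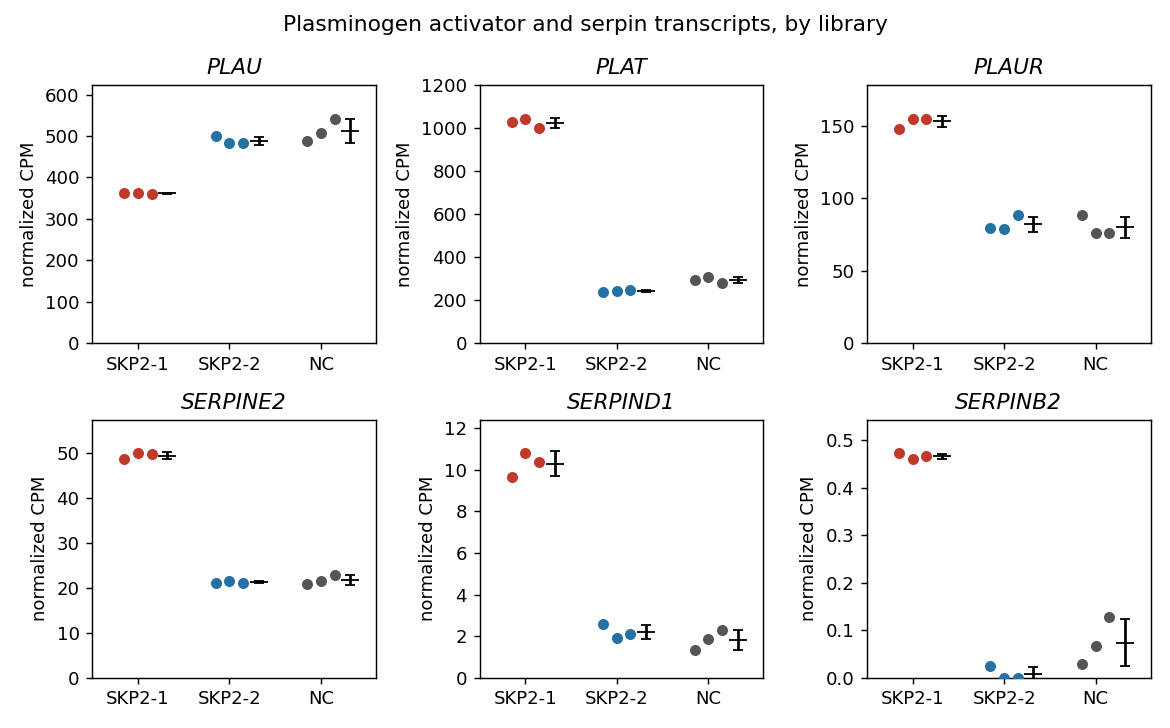
Normalized CPM on a linear axis for each gene, with 1 point per library and the mean with SD (n = 3) beside the points, for SKP2-1, SKP2-2 and NC. PLAT lies between 1001 and 1045 CPM with SKP2-1, above all libraries of SKP2-2 and NC, and PLAU with SKP2-1 lies below all others.

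PLAU (ENSG00000122861, chromosome 10, 73909177 to 73917497, plus strand, GENCODE 29 on GRCh38) is the protease that activates plasminogen at the cell surface. It had 361, 363 and 359 CPM with SKP2-1, 499, 482 and 483 CPM with SKP2-2, and 487, 508 and 542 CPM in NC. The SKP2-1 libraries lay below all others, and the SKP2-2 and NC libraries overlapped. The log2 fold change against NC was -0.50 (SE 0.05) with SKP2-1, which is 1.42-fold lower, and -0.07 (SE 0.05) with SKP2-2. Between the siRNAs, PLAU was 1.35-fold higher with SKP2-2 than with SKP2-1, a log2 difference of 0.43 (SE 0.05). These levels rest on 14172 to 25633 counts per library.

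C10orf55 lies on the strand opposite to PLAU and shares 916 bases with its exons, which is 31.05% of the PLAU exon length. It had 42, 41 and 55 counts with SKP2-1, 77, 72 and 92 counts with SKP2-2, and 82, 91 and 82 counts in NC. The strand setting of the counting is not given in the sources used here, so reads of the shared stretch may be missing from PLAU or assigned across the strands. The counts of C10orf55 were far below those of PLAU in each library.

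PLAT (ENSG00000104368, chromosome 8, 42175233 to 42207724, minus strand) encodes the other activator, the one used as a drug to dissolve clots. Its transcript stood at 1031, 1045 and 1001 CPM with SKP2-1, 237, 240 and 246 CPM with SKP2-2, and 294, 305 and 277 CPM in NC. The 3 groups did not overlap, with SKP2-1 at the top and SKP2-2 at the bottom. Against NC, the level with SKP2-1 was 3.51-fold higher (log2 1.81, SE 0.05) and the level with SKP2-2 was 1.21-fold lower (log2 -0.28, SE 0.05). PLAT with SKP2-2 was 4.25-fold lower than with SKP2-1 (log2 -2.09, SE 0.05). It thus moved in opposite directions with the 2 siRNAs, with a far smaller change for SKP2-2.

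PLAUR (ENSG00000011422, chromosome 19, 43646095 to 43670547, minus strand) encodes the lipid-anchored receptor that holds urokinase at the cell surface. It had 148, 155 and 155 CPM with SKP2-1, 79.2, 78.8 and 88.1 CPM with SKP2-2, and 88.4, 75.7 and 75.8 CPM in NC. The SKP2-1 libraries lay above all others, and the ranges of SKP2-2 and NC overlapped. The level with SKP2-1 was 1.91-fold that in NC (log2 0.94, SE 0.06), whereas with SKP2-2 the log2 fold change was 0.04 (SE 0.06). Within the NC and SKP2-2 groups, the highest PLAUR values came from NC replicate 1 and SKP2-2 replicate 3, which deviated together from their groups over all genes. Without both of these libraries the PLAUR log2 fold change was 0.97 with SKP2-1 and 0.04 with SKP2-2. The transcripts of receptor and ligand differed in opposite directions from NC with SKP2-1, and no protein was measured here. The ratio of PLAU to PLAUR per exon length was 3.57 ± 0.0945 with SKP2-1, 9.02 ± 0.647 with SKP2-2 and 9.74 ± 1.28 in NC (SD, n = 3 each).

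SERPINE2 (ENSG00000135919, chromosome 2, 223975112 to 224039319, minus strand) encodes protease nexin, a serpin that inhibits thrombin, urokinase and plasmin near the cell surface. Its level was 48.7, 50.0 and 49.8 CPM with SKP2-1, 21.2, 21.6 and 21.1 CPM with SKP2-2, and 20.8, 21.6 and 22.9 CPM in NC. All SKP2-1 libraries were above the rest, and the SKP2-2 range lay within that of NC. This was 2.27-fold higher with SKP2-1 than in NC (log2 1.18, SE 0.05), against a log2 fold change of -0.03 (SE 0.05) with SKP2-2.

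SERPIND1 (ENSG00000099937, chromosome 22, 20773879 to 20787720, plus strand) encodes heparin cofactor II, a thrombin inhibitor made mainly by the liver and known from plasma. It was detected here at a low level, with 9.65, 10.8 and 10.4 CPM with SKP2-1, 2.59, 1.93 and 2.10 CPM with SKP2-2, and 1.32, 1.86 and 2.29 CPM in NC. The SKP2-1 libraries lay above all others, and SKP2-2 and NC overlapped. The level was 5.57-fold higher with SKP2-1 than in NC (log2 2.48, SE 0.16) and the log2 fold change with SKP2-2 was 0.25 (SE 0.17). Without NC replicate 3, the NC library with the most SERPIND1, the SKP2-2 value was 0.45. These values rest on 409, 423 and 512 counts with SKP2-1, 105, 85 and 98 with SKP2-2, and 47, 84 and 108 in NC. SERPIND1 lies within PI4KA, which is on the opposite strand, and the exons of the 2 genes do not overlap. PI4KA had 3307 to 5867 counts per library. As the strand setting is not given, reads of PI4KA introns may have been counted for SERPIND1, which was not tested.

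SERPINB2 (ENSG00000197632, chromosome 18, 63871692 to 63903890, plus strand) encodes an inhibitor of urokinase and tissue plasminogen activator that is largely kept inside the cell. It had 20, 18 and 23 counts with SKP2-1, 1, 0 and 0 counts with SKP2-2, and 1, 3 and 6 counts in NC. The SKP2-1 libraries lay far above the rest, at 0.472, 0.461 and 0.466 CPM. The ratio of summed counts per library size, SKP2-1 over NC, was 5.98 (95% exact interval 3.04 to 13.1, counting error only). NC replicate 3 held 6 of the 10 NC counts, and without it the ratio was 9.43 (interval 3.50 to 35.7). For SKP2-2 over NC this ratio was 0.0975, with a wide interval of 0.00225 to 0.686. The gene was chosen from these counts, so these intervals are a description and no test, and they leave out the spread between libraries. A count of 0 allows up to 3 counts, which is 0.0608 to 0.0843 CPM over the 9 libraries. SERPINB10 shares 547 bases with the SERPINB2 exons on the same strand and had 0 counts in every library. This is 19.91% of the SERPINB2 exon length, and reads of that stretch may have been left uncounted as ambiguous.

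The 3 serpins were each highest in the SKP2-1 libraries, at very different levels. Their order between SKP2-2 and NC was not shared, since the SERPIND1 mean was higher with SKP2-2 than in NC and the means of SERPINE2 and SERPINB2 were lower. Compared with all genes tested against NC with SKP2-1, the log2 fold changes of SERPINB2 and SERPIND1 ranked 13 and 17 from the top, PLAT ranked 68, SERPINE2 321 and PLAUR 622. PLAU ranked 1916 from the bottom. These ranks follow from how the genes were chosen and nothing is read from them. That of SERPINB2 rests on 10 counts in NC, and this gene passed the filter on low counts only through the SKP2-1 libraries. The median log2 fold change of all genes was 0.02 with SKP2-1 and 0.03 with SKP2-2, and the middle 50% of genes lay between -0.24 and 0.28 with SKP2-1 and between -0.27 and 0.31 with SKP2-2.

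**Figure D2:**
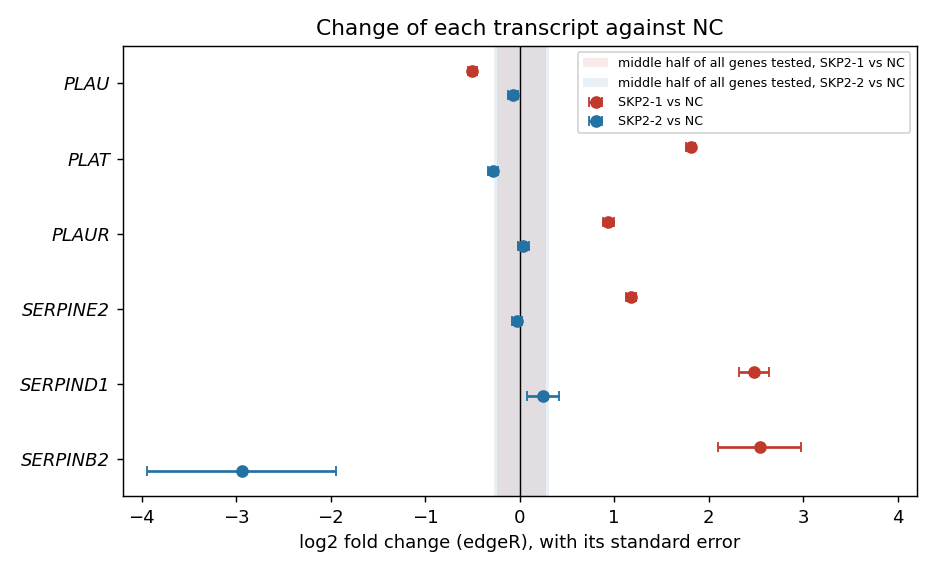
Log2 fold change from edgeR against NC for each gene with SKP2-1 and SKP2-2, with standard errors. Shaded bands span the middle 50% of all 16575 genes, and the SERPINB2 value for SKP2-2 is a fitted value based on 1 count.

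Levels of different genes were compared per kilobase of exon, with all annotated exons of a gene merged (2950 bases for PLAU and 6618 for PLAT). The transcripts present may be shorter than this, so the order and the ratios between genes depend on the annotation. With SKP2-1 the order was PLAT at 155, PLAU at 122, PLAUR at 34.3, SERPINE2 at 5.57, SERPIND1 at 4.03 and SERPINB2 at 0.17 CPM per kb. With SKP2-2 it was PLAU at 165, PLAT at 36.4, PLAUR at 18.4, SERPINE2 at 2.39 and SERPIND1 at 0.864 CPM per kb, and SERPINB2 came last with 1 count in 3 libraries, under the limit that a count of 0 allows. NC had the order of SKP2-2, with PLAU at 174, PLAT at 44.1, PLAUR at 17.9, SERPINE2 at 2.45, SERPIND1 at 0.713 and SERPINB2 at 0.0269 CPM per kb. By this measure PLAU was the most abundant of the 6 transcripts in SKP2-2 and NC, and PLAT in SKP2-1. The ratio of PLAT to PLAU per exon length was 1.26 ± 0.0208 with SKP2-1, 0.22 ± 0.00764 with SKP2-2 and 0.255 ± 0.024 in NC (SD, n = 3 each). Leaving SERPINB2 aside, neighbouring genes in this order differed by more than the SDs of their means in each group.

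**Figure D3:**
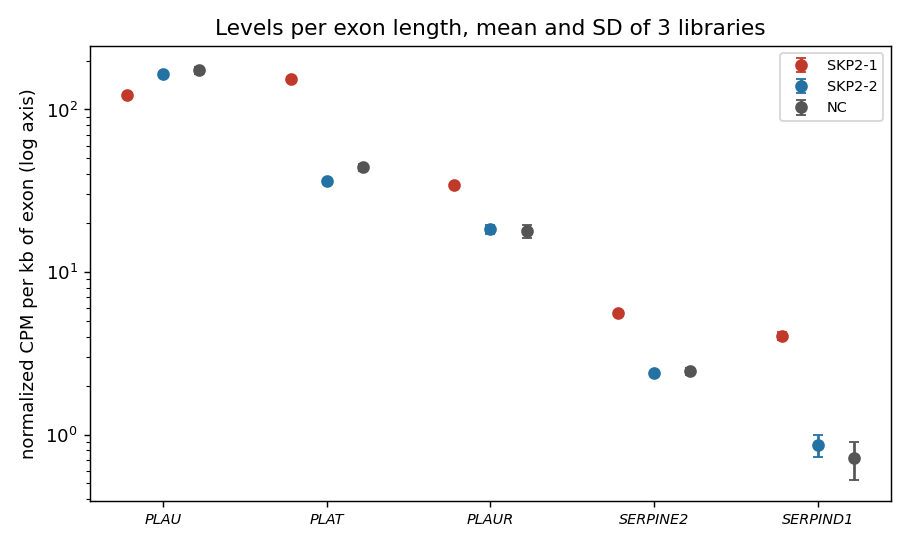
Mean normalized CPM per kb of exon on a log axis with SD (n = 3) for SKP2-1, SKP2-2 and NC. SERPINB2, at 0.17 CPM per kb or lower, is not drawn, and PLAT stands above PLAU only with SKP2-1.

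The pattern of each gene over the 9 libraries was set beside those of other genes by the root mean square difference in log2 CPM, centred on NC. The nearest to PLAU was MAP3K7 at 0.024, followed by MARS1 at 0.029 and URI1 at 0.031. PLAUR was nearest to CYB5D2 at 0.078, PHLDA1 at 0.082 and CYP1B1 at 0.084, and SERPINE2 to ACOX2 at 0.06, ERRFI1 at 0.073 and IFIH1 at 0.089. The genes nearest to PLAT were IL1A at 0.134, IFIT1 at 0.183 and OASL at 0.227, which belong to the interleukin and interferon responses. SERPIND1 was nearest to the collagenase gene MMP1 at 0.307, to IL24 at 0.338 and to SLC14A1 at 0.34. For SERPINB2 the closest was FZD4, at a wide distance of 0.455. Among the 6 genes, PLAUR and SERPINE2 were the closest pair at 0.179 and PLAU and SERPIND1 the farthest at 1.756. The differences are descriptions over the same 9 libraries.

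Plasminogen itself was not measurable in these cells. PLG had 0 counts in 8 of the 9 libraries and 2 counts in SKP2-2 replicate 3, and was not tested. Of its cell-surface receptors, ANXA2, S100A10 and ENO1 had group means of 250 to 2546 CPM and PLGRKT averaged 8.10 CPM with SKP2-1, 9.48 CPM with SKP2-2 and 9.47 CPM in NC. Of these 4 tested genes, 2 rose and 1 fell with SKP2-1 and 3 rose with SKP2-2 by edgeR's quasi-likelihood test. ANXA2, the annexin that binds plasminogen and tissue plasminogen activator, rose with SKP2-1 (log2 0.37, adjusted p = 0.000167) and with SKP2-2 (log2 0.21, adjusted p = 0.00882), and the call with SKP2-2 was lost when only the 2 groups were fitted (log2 0.19). Its partner S100A10 rose too (log2 0.19 with SKP2-1 and 0.22 with SKP2-2), a call that was lost with SKP2-1 without NC replicate 2 (log2 0.17). PLGRKT, a transmembrane plasminogen receptor, was the gene that fell with SKP2-1 (log2 -0.23), a call that held in 9 of the 18 settings run. ENO1, the enolase that also binds plasminogen, rose with SKP2-2 (log2 0.24) and was at a log2 fold change of 0.01 with SKP2-1.

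Other inhibitors of the plasminogen system were tested for 2 of 5 listed genes, and by edgeR's quasi-likelihood test 2 rose with SKP2-1, and 1 rose and 1 fell with SKP2-2. SERPINF2, which inhibits plasmin, rose with both siRNAs (log2 0.55 with SKP2-1 and 1.21 with SKP2-2, edgeR adjusted p = 0.00932 and 1.39e-05). Its level was low, at 1.75 CPM with SKP2-1, 2.74 CPM with SKP2-2 and 1.19 CPM in NC. SERPINI1, neuroserpin, which inhibits tissue plasminogen activator, rose with SKP2-1 (log2 0.53) and fell with SKP2-2 (log2 -0.33), the fall being lost without NC replicate 3 (log2 -0.25).

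Partners of the urokinase receptor and receptors that clear protease and serpin complexes were tested for 15 of 15 genes. With SKP2-1, 9 rose and 1 fell, with a median log2 fold change of 0.48, and with SKP2-2, 5 rose and 2 fell, with a median of 0.14. Among the 9, VTN passed the filter on counts only through the SKP2-1 libraries. VLDLR, a receptor that takes up such complexes, rose by log2 0.69 with SKP2-1 and 0.82 with SKP2-2 (edgeR adjusted p = 2.7e-07 and 4.16e-08). The fibronectin receptor subunit ITGA5 rose by log2 0.48 with SKP2-1 and by 0.48 with SKP2-2. ITGB3, the beta subunit of the vitronectin receptor, rose with SKP2-1 (log2 0.70) and fell with SKP2-2 (log2 -0.96). ITGB1 fell with both (log2 -0.34 with SKP2-1 and -0.82 with SKP2-2).

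Substrates of urokinase and plasmin were tested for 10 of 13 genes, and 7 rose with SKP2-1 and none fell. With SKP2-2, 0 rose and 2 fell. The median log2 fold change was 0.89 with SKP2-1 and -0.01 with SKP2-2, beside 0.02 and 0.03 over all genes tested. Both falls were of matrix proteins that rose with SKP2-1. MMP1, the collagenase nearest in pattern to SERPIND1, averaged 128 CPM with SKP2-1, 18.7 CPM with SKP2-2 and 20.6 CPM in NC. Its log2 fold change was 2.63 with SKP2-1 and -0.14 with SKP2-2. It was named for its pattern over these libraries, so these values are a description. LTBP1, which anchors latent TGF-beta in the matrix, had a log2 fold change of 0.98 with SKP2-1 and -0.72 with SKP2-2 (edgeR adjusted p = 9.56e-09 and 1.72e-07). Fibronectin, FN1, had 0.80 and -0.61 on the same scale for SKP2-1 and SKP2-2. MMP10, a stromelysin, rose with SKP2-1 (log2 1.10). So did MMP9, a gelatinase at 0.32 CPM with SKP2-1, 0.196 CPM with SKP2-2 and 0.0879 CPM in NC. MMP9 and MMP3, both among the 7 that rose, passed the filter on counts only through the SKP2-1 libraries. Their rise and their part in the median are tied to that filter.

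Thrombin and tissue factor genes bear on SERPIND1 and SERPINE2, which inhibit thrombin. The thrombin gene F2 was not tested. Of 9 genes tested, 6 rose with SKP2-1, and 3 rose and 3 fell with SKP2-2. THBD, the thrombomodulin that binds thrombin on the cell surface, rose with SKP2-1 (log2 1.21, edgeR adjusted p = 1.32e-09) and fell with SKP2-2 (log2 -0.55, edgeR adjusted p = 1.6e-06). TFPI2, a serine protease inhibitor, moved likewise (log2 1.08 with SKP2-1 and -0.25 with SKP2-2), and its fall was lost without SKP2-2 replicate 2 (log2 -0.21). TFPI, the tissue factor pathway inhibitor, rose with both (log2 0.43 with SKP2-1 and 0.46 with SKP2-2).

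Of the other serpins, 8 of 26 passed the filter on counts, and 5 of them rose with SKP2-1, while 2 rose and 4 fell with SKP2-2. SERPINB7 rose by log2 1.43 with SKP2-1 and 2.03 with SKP2-2, at 0.564 and 0.866 CPM against 0.21 CPM in NC. It had 7, 10 and 10 counts in NC and passed the filter on counts only through the libraries of the SKP2 siRNAs. Its rise is tied to that filter. SERPINH1, a collagen chaperone, rose by log2 0.19 with SKP2-1 and 0.34 with SKP2-2, and its call with SKP2-1 was lost when only the 2 groups were fitted (log2 0.12). SERPINB1 and SERPINB6 rose with SKP2-1 (log2 0.31 and 0.27) and fell with SKP2-2 (log2 -0.17 and -0.15). Without SKP2-2 replicate 2 neither fall passed (log2 -0.15 for each), without NC replicate 2 that of SERPINB1 did not (log2 -0.16), and without NC replicate 3 that of SERPINB6 did not (log2 -0.10). Genes with the protein fold of the urokinase receptor were tested for 8 of 15, and 5 rose and 1 fell with SKP2-1, and 6 rose and 1 fell with SKP2-2. LYPD6 fell with both (log2 -1.06 with SKP2-1 and -0.38 with SKP2-2), and LY6E rose with both (log2 0.67 and 0.39 for SKP2-1 and SKP2-2).

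Genes of the AP-1, ETS, NF-kB and SP families were tested for all 15 listed. With SKP2-1, 2 rose and 6 fell, and with SKP2-2, 2 rose and 4 fell. FOSL1, an AP-1 subunit, fell with SKP2-1 (log2 -0.18, edgeR adjusted p = 0.003) and rose with SKP2-2 (log2 0.49, edgeR adjusted p = 6.06e-07). ETS1 had log2 fold changes of -0.16 with SKP2-1 and 0.44 with SKP2-2, and its call with SKP2-1 did not hold in 6 of the 18 settings run. ETS2 and ETV4 fell with both siRNAs (log2 -0.20 and -0.19 with SKP2-1, -0.15 and -0.14 with SKP2-2). Their calls with SKP2-2 held in 17 and 14 of the 18 settings. Over the 8 lists, 71 of 105 genes were tested, and 38 rose and 9 fell with SKP2-1, and 22 rose and 17 fell with SKP2-2. As shares these are 53.5% and 12.7% with SKP2-1 and 31.0% and 23.9% with SKP2-2, beside the shares of all genes above. The lists were drawn up with earlier results of these libraries known, so these shares are no independent evidence of a direction.

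**Figure D4:**
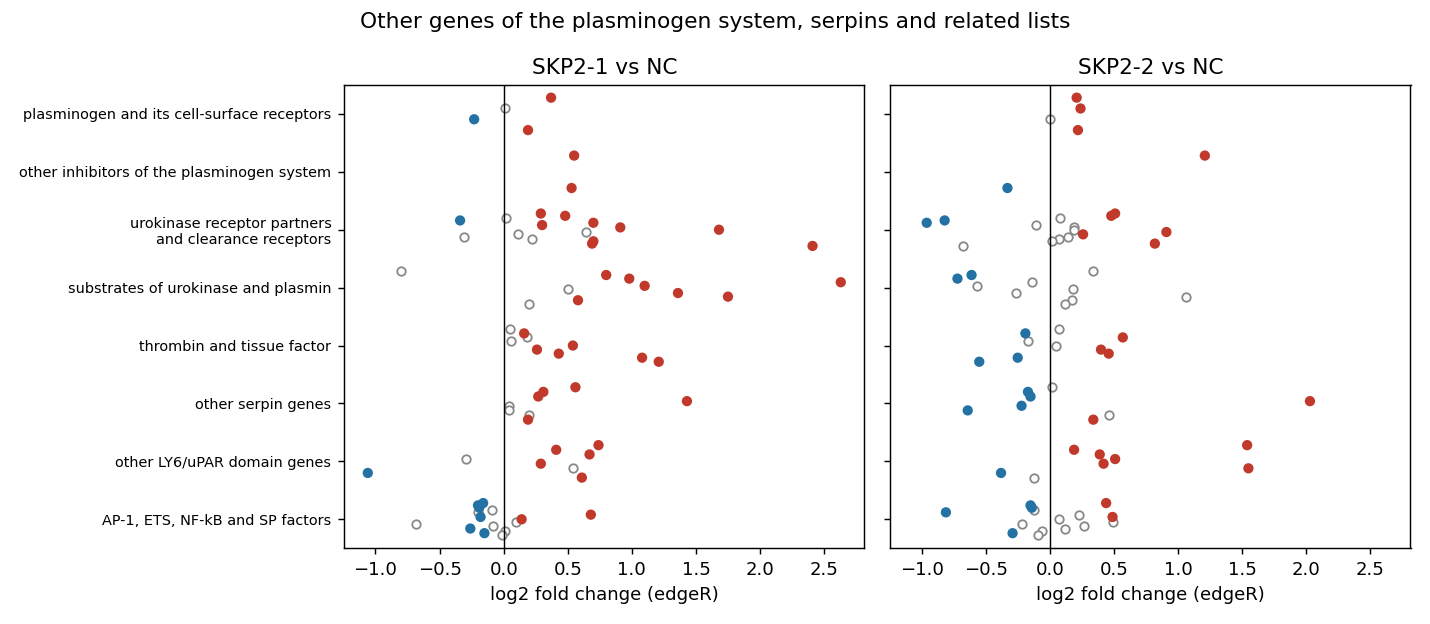
Log2 fold change from edgeR against NC for each tested gene of the 8 lists, with SKP2-1 in the left panel and SKP2-2 in the right panel. Red and blue points are higher and lower beyond the threshold and open points are not beyond it, and the substrates lie mostly right of 0 with SKP2-1.

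Markers of other cell types moved in part with the 6 genes. The 5 endothelial markers PECAM1, KDR, VWF, CDH5 and TEK summed to 15.7 to 17.4 CPM with SKP2-1, 7.94 to 9.50 CPM with SKP2-2 and 7.11 to 8.19 CPM in NC. PECAM1 rose with SKP2-1 (log2 1.21, edgeR adjusted p = 4.74e-07), and KDR rose with SKP2-1 (log2 1.04) and with SKP2-2 (log2 0.43). CDH5, the defining cadherin of endothelium, averaged 0.0288 CPM with SKP2-1 and 0.0692 CPM with SKP2-2. These means rest on 4 and 9 counts in all, and NC had 0 counts. VWF averaged 0.0805 CPM with SKP2-1, 0.187 CPM with SKP2-2 and 0.053 CPM in NC. TEK went the other way, at 0.0877 CPM with SKP2-1, 0.113 CPM with SKP2-2 and 0.217 CPM in NC. CDH5, VWF and TEK did not pass the filter on counts. The 5 immune markers PTPRC, CD14, CD3E, LYZ and CSF1R summed to 8.82 to 9.87, 8.61 to 9.41 and 6.01 to 6.27 CPM in SKP2-1, SKP2-2 and NC. CD3E had 1 count in all with SKP2-1, 1 with SKP2-2 and 0 in NC. By edgeR's test PTPRC rose with SKP2-1 and SKP2-2 (log2 1.32 and 1.02), as did CD14 (log2 1.09 and 0.98). LYZ rose only with SKP2-1 (log2 0.73) and CSF1R only with SKP2-2 (log2 0.48). The part of these markers in the differences of the plasminogen system was not tested.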

How the data were processed

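The submitters' processing notes name STAR without a version, HTSeq 0.6.1, DESeq2 1.16.1, Trim Galore 0.4.1 and FastQC 0.11.2. The authors deposited raw counts per Ensembl gene, 1 table per library. The genome build, annotation and strand setting are not given in the sources used here. Per the labels' protocols, RNA came from the RNeasy mini kit with DNase I treatment. Summary lines of reads outside genes (5.34% to 5.92%) and in several genes (3.87% to 3.97%) were left out of library totals.

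Of 58395 identifiers, 58275 matched GENCODE 29, from which symbols, GRCh38 positions and exon lengths were taken. Tests used edgeR 4.0.16 in R 4.3.3, with filterByExpr (minimum count 10, minimum total 15), TMM scaling and a robust quasi-likelihood fit of all 9 libraries that had a term for group and no other. Two-sided tests were adjusted by Benjamini-Hochberg over 16575 genes with a threshold of 0.05. Fold changes are given with standard errors, and the tests were tested on simulated data. Intervals of count ratios are exact and cover counting error only.

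The members and lists were chosen with earlier results of these data known. SKP2, SLC39A7 and PLG were always named. Of the listed genes, 2 are not reported here and were left out of the list counts. Up to 4 genes per list had the smallest larger adjusted p over both comparisons with NC, and the 3 genes nearest in pattern to each member had a mean of at least 2 CPM. Alternatives were RLE scaling, library size only, 2 other filters, DESeq2 1.42.0, a fit of only the 2 groups, a replicate block and each library left out.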

Additional observations from a re-analysis of the deposited data

Results flagged for a closer look

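Some of the genes named here lay beyond the threshold against NC in opposite directions with SKP2-1 and SKP2-2. Those named by pattern and the cell type markers are included, and the share of all genes that did so is not given. The value given is log2 SKP2-2 minus SKP2-1. For PLAT it was -2.09 and for SERPINB2 -5.48, a fitted value resting on 1 count with SKP2-2, and both are a description with no test. Since the genes were singled out for this pattern, the differences of the others are likewise given as values and support nothing. It was -0.85 for SERPINI1, an inhibitor of tissue plasminogen activator. It was -1.66 for ITGB3, -1.70 for LTBP1, -1.41 for FN1, -1.76 for THBD and -1.33 for TFPI2. The serpins SERPINB1 and SERPINB6 differed by -0.48 and -0.42. The transcription factor genes FOSL1 and ETS1 differed by 0.67 and 0.60, higher with SKP2-2. For FZD4, CH25H and NOX5, the genes nearest in pattern to SERPINB2, it was -2.48, -3.27 and -2.29, and the call of CH25H with SKP2-2 was lost without NC replicate 2. For the marker CAV1 it was 0.53.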

How the results depend on the processing

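The numbers of genes, list genes and members called kept within 1.5 times of their values in the settings run, with 1 exception. The members called for SKP2-2 against NC were 2, and were 1 when only the 2 groups were fitted and 1 to 3 when each library was left out. Calls of the members are descriptions. The SERPINB2 call was lost without NC replicate 3 (log2 -2.31), SKP2-2 replicate 2 (log2 -2.49) or SKP2-2 replicate 3 (log2 -2.47), and with only the 2 groups (log2 -2.96). PLAU was called as lower with SKP2-2 without NC replicate 1 (log2 -0.11) or SKP2-2 replicate 1 (log2 -0.13) and with the filter at 1 CPM (log2 -0.10). SERPIND1 was called as higher with SKP2-2 without NC replicate 3 (log2 0.45). Of the other named genes, 2441 values kept their side of the threshold, 34 gained a call and 69 lost it. The cause was not tested. Without NC replicate 1 and SKP2-2 replicate 3, an alternative chosen after seeing the data, 6 members were called for SKP2-1 against NC and 3 for SKP2-2 against NC, with 52 list genes (40 higher, 12 lower) and 46 list genes (24 higher, 22 lower).

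Over 9 pairs of libraries with the same number, the correlation of deviations lay between -0.498 and 0.055, which gave no sign of pairing by number. With deviations taken within groups of 3 libraries, this cannot show that the samples are unpaired. With the replicate block, 6818 genes were called for SKP2-1 against NC, 7501 for SKP2-2 against NC and 7500 for SKP2-2 against SKP2-1, and 6, 2 and 6 members. With a filter of 1 CPM in 3 libraries SERPINB2 was dropped, and 5 members were called for SKP2-1 against NC and for SKP2-2 against SKP2-1. Depth limits SERPINB2 most, with at most 6 counts in any SKP2-2 or NC library.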
